A study of Rattus norvegicus with 12 samples.

Results

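The genes described here drive or carry out mitosis, the separation of duplicated chromosomes into daughter nuclei, and the cytokinesis that follows it. They are 36 genes in 6 roles, taken by name from the array's annotation, with older names such as Cdc2 mapped to the current Cdk1. Of the 36, 35 had a probe, and Mki67 had none. Through the gene table the array named 16246 genes, these included. The 35 had 47 of the 41012 non-control probes, and 10 of them had more than 1 probe.

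RNA came from male Sprague-Dawley (CD) rats that received amiodarone by mouth at 300 mg/kg per day for 10 days, or the vehicle alone, methylcellulose at 1% (w/v). Amiodarone is an antiarrhythmic drug that prolongs the cardiac action potential. The 4 groups were amiodarone left ventricle, vehicle left ventricle, amiodarone whole blood and vehicle whole blood. Each had 3 pools with 1 single-colour Agilent array per pool. The labels give an age of 10 weeks when dosing began and of 11 weeks for each sample. How many animals made up a pool is not stated, nor whether heart and blood pools of 1 number share animals, so p-values measure the spread between these pools only.

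Cdk1 bound to cyclin B drives entry into mitosis. Exit follows when the anaphase-promoting complex, with its activator Cdc20, marks cyclin B and securin for destruction. Kinases of the Aurora and Polo families build the spindle, kinesins move and cross-link its microtubules, and the spindle checkpoint delays anaphase until every kinetochore is attached. Transcripts of these genes peak in G2 and M phase and are scarce in cells that do not divide, such as most adult cardiomyocytes and circulating granulocytes. In rat blood, young red cells released from the marrow can still carry RNA made in their dividing precursors.

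The sequences below show where 3 of the probes that the results turn on sit, since a probe reads only its own stretch of a transcript. Each is 60 bases long and is split across an exon junction in rat genome build rn4, so its complement in the genome is interrupted by an intron. The Ccnb1 probe lies at chr2:31574809-31575048 on the minus strand, the Cdc20 probe at chr5:138913267-138914237 on the minus strand and the Cdkn3 probe at chr15:22627080-22628590 on the plus strand, per the deposited files. Of the 46 probes with coordinates there, 14 spanned more genome than their own length.
Ccnb1: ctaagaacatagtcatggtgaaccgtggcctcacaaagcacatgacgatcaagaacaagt
Cdc20: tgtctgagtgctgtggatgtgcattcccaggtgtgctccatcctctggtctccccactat
Cdkn3: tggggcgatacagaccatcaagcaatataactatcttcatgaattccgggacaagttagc

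Many mitosis genes share short promoter elements, known mainly from human and mouse cells. The cell cycle homology region, TTTGAA, is bound by the DREAM and MuvB complexes, and CCAAT boxes are bound by NF-Y. RefSeq promoters of build GRCr8, running from 250 bases before to 50 after the start, were at hand for 29 of the 36 genes. Both motifs were searched on both strands, so TTCAAA and ATTGG counted too. TTTGAA was found in 22 of the 29 (75.9%), against 18.1% of 27457 promoters in the table. CCAAT was found in 19 of the 29 (65.5%), against 37.7% of all promoters, and 14 (48.3%) held at least 2 matches, against 11.5%. Both motifs together were found in 16 of the 29 (55.2%), against 7.25% of all promoters.

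Of the 27 TTTGAA matches in these genes, 16 (59.3%) began within the 100 bases before the start, against 29.4% of 5798 matches over all promoters. The E2F motifs TTCCCGC or TTGGCGC were found in 5 of the 29 (17.2%), against 6.67% of all promoters. TTGGCGC can overlap ATTGG, so those counts are not independent. A match is a description of letters, not a measured binding site.

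The 150 bases before the start are shown for 6 genes whose array values are given further on, 5 with both motifs in that stretch and Melk with neither. Capitals mark TTTGAA and CCAAT in either orientation. Positions in GRCr8 are chr20:19265143-19265292 (plus strand) for Cdk1, chr8:79981659-79981808 (minus strand) for Ccnb2, chr5:137255800-137255949 (minus strand) for Cdc20, chr10:84473094-84473243 (minus strand) for Top2a, chr1:191080879-191081028 (minus strand) for Kif22 and chr5:63336001-63336150 (plus strand) for Melk. In Cdk1, TTTGAA began 72 and 16 bases before the start. In Ccnb2, 3 CCAAT boxes began 134, 101 and 68 bases before the start, and TTTGAA followed at 43.
Cdk1: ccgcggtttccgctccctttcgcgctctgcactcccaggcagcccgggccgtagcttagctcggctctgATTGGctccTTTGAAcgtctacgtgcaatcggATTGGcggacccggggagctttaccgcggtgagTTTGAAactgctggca
Ccnb2: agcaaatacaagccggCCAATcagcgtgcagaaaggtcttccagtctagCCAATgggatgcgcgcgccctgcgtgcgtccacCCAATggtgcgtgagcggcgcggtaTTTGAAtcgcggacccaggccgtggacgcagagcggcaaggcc
Cdc20: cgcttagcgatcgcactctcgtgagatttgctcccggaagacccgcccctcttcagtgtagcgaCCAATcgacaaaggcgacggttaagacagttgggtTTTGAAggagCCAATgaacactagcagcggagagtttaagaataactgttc
Top2a: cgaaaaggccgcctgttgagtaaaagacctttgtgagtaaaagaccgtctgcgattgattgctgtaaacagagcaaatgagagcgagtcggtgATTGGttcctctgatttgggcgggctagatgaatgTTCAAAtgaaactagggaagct
Kif22: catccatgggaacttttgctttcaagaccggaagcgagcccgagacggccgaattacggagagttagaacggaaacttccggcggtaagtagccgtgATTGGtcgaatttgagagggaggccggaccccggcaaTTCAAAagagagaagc
Melk: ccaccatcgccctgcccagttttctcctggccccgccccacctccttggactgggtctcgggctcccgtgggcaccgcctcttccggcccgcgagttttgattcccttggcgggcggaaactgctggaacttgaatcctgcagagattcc

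Signals are given on a scale where 100 is the 75th percentile of the array. They compare 1 probe between pools, and never 1 gene with another. Of 43379 spots, those clear of background numbered 21233 to 24300 in amiodarone hearts and 21798 to 25032 in vehicle hearts. In blood they numbered 20625 to 21245 with amiodarone and only 14459 to 15548 with vehicle. The 75th percentile of raw signal was 103 to 151 in amiodarone hearts and 106 to 165 in vehicle hearts. It was 54.1 to 83.5 in amiodarone blood and 20.2 to 25.3 in vehicle blood. The dimmest signal that could count as measured was therefore 12.7 to 15.0 units in amiodarone blood and 36 to 42.7 in vehicle blood, and vehicle blood values under it have no order. All 14 cardiomyocyte markers were tested in heart, and 5 also passed the filter in blood (Myl7, Ryr2, Mb, Atp2a2 and Actc1). Myh6, Myh7, Myl3, Nppa, Nppb and Tnni3 were well above background on no blood array.

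In the left ventricle, most of the mitosis genes that could be tested fell with amiodarone. A gene entered the test in a tissue if every array of either treatment group (3 of 3) had its probe well above background, and a limma adjusted p below 0.05 over all features counted as past the threshold. Of 25 genes tested, 24 were lower, 0 were higher (0 at an unadjusted p below 0.05 as well) and only Kif15 did not pass. Over all 17765 features tested in heart, 4.01% were lower and 4.35% higher. All 24 also had every amiodarone pool below every vehicle pool, which held for 13.2% of features, and 19.1% had every amiodarone pool above. In bulk tissue, fewer dividing cells and less of these transcripts per cell cannot be told apart.

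That count must be read with the filter. Of the 25 genes, 17 passed it through the vehicle pools alone, so their lower level with amiodarone is in part built in. The other 8 were well above background on all 6 arrays: Cdk1, Ccnb1, Foxm1, Plk1, Aurka, Bub1, Cdc20 and Racgap1. They come from 4 roles, and no kinetochore gene or kinesin of the spindle is among them. All 8 were lower, with differences of -2.67 to -0.70 on the log2 scale and a median of -1.55. Among the 16127 features measured on all 6 heart arrays, 3.80% were lower and 4.78% higher, and the median difference was 0.04.

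Seen as detection, 8 of the 35 genes were well above background on all 3 amiodarone hearts and 25 on all 3 vehicle hearts. On no array of the group were 17 with amiodarone and 3 with vehicle. Ccnb2, Ccna2, Melk, Ttk, Bub1b, Espl1, Nuf2 and Top2a were on 0 amiodarone arrays and on all 3 vehicle arrays, a pattern shown by 0.561% of the features on all vehicle arrays. None of the genes showed the reverse, which 0.151% of the features on all amiodarone arrays did. For these 8 genes only a lower bound of the fold can be given. It is the vehicle mean over the amiodarone mean, with each amiodarone signal raised to its array's dimmest measurable signal where it fell below that.

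**Figure D1:**
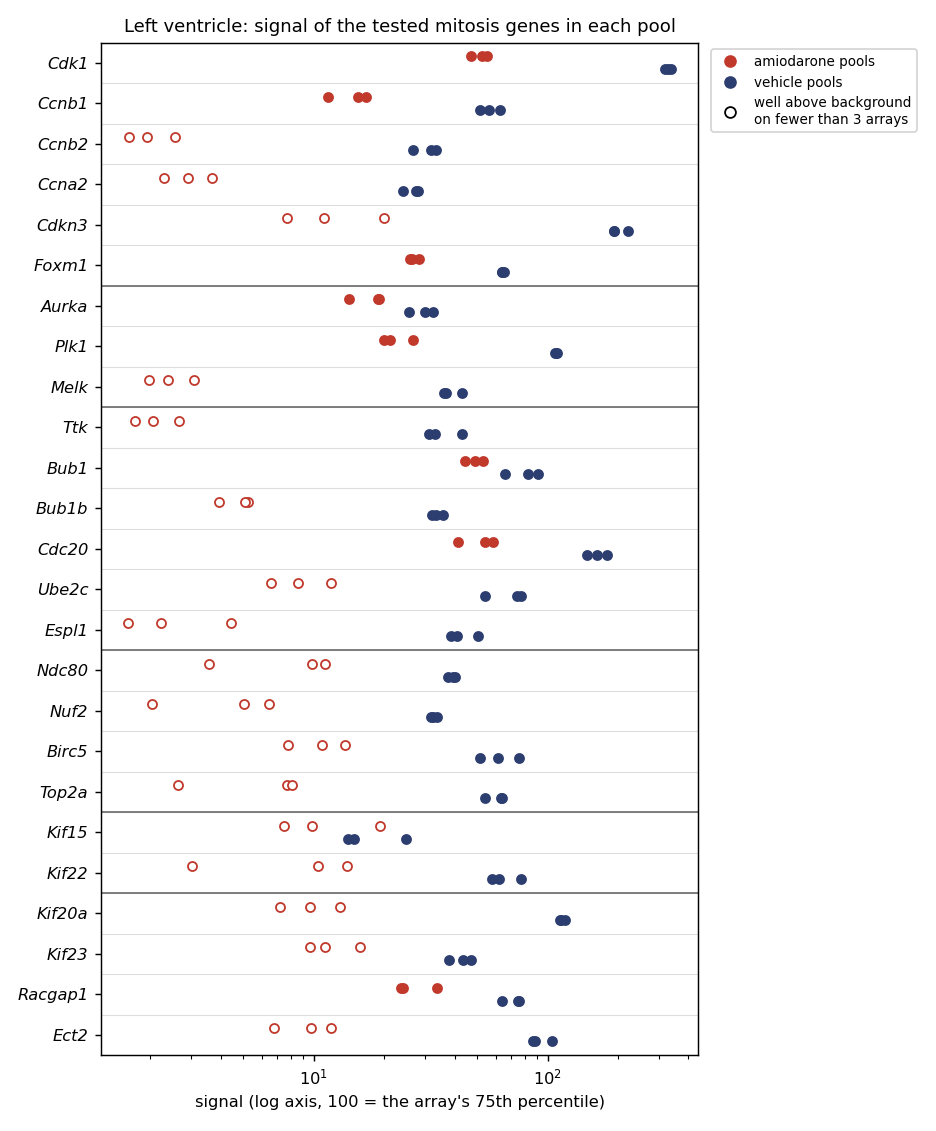
Signal of each tested mitosis gene in the 3 amiodarone and the 3 vehicle left ventricle pools, on a log axis where 100 is the array's 75th percentile. Dark lines part the 6 roles, and open points mark groups with fewer than 3 arrays well above background. The groups overlap only for Kif15, and the amiodarone points of 17 genes are open.

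Of the cyclins, Cdk1 and their regulators, all 6 tested were lower. Cdk1, the kinase that triggers entry into mitosis, had signals of 52.6, 54.8 and 47.2 in amiodarone hearts, against 316, 327 and 337 in vehicle hearts. The pools of each group lay close together and the groups were far apart. Its log2 difference was -2.67 (SE 0.13, n = 3 each, adjusted p = 0.000153). Ccnb2, which encodes cyclin B2, had 2.54, 1.63 and 1.94 in amiodarone hearts, all indistinguishable from background, against 31.6, 33.3 and 26.5 in vehicle hearts. Ccnb2 was thus at least 3.76-fold lower (adjusted p = 0.000153).

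The remaining regulators followed. Cdkn3, a phosphatase that acts on Cdk1 and Cdk2, differed by -4.08 with 1 amiodarone array well above background. Ccna2, which encodes cyclin A2, was at least 3.27-fold lower. Ccnb1, which encodes cyclin B1, differed by -1.98 and Foxm1, the transcription factor that drives many G2 and M genes, by -1.27. Cks2, a small Cdk-binding protein, was not tested, with 1.67 to 2.42 in amiodarone hearts and 5.90 to 11.2 in vehicle hearts, and only 1 of those arrays well above background.

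Mitotic kinases were lower in all 3 tested cases. Plk1, the Polo kinase needed for centrosome maturation and spindle assembly, had 19.9, 26.5 and 21.2 in amiodarone hearts, against 110, 107 and 109 in vehicle hearts. Every amiodarone pool was below every vehicle pool, with a log2 difference of -2.28 (SE 0.15, n = 3 each, adjusted p = 0.000404), and a second Plk1 probe, on 1 amiodarone array, differed by a fitted -3.15. Melk, a kinase most abundant in dividing progenitor cells, had 2.38, 3.07 and 1.97 in amiodarone hearts, against 42.9, 36.9 and 36.1 in vehicle hearts. It was at least 4.77-fold lower (adjusted p = 0.000153), although its promoter shown above holds neither motif.

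Aurka, the Aurora A kinase of spindle poles, showed one of the smallest falls, at -0.76 (SE 0.18, n = 3 each, adjusted p = 0.0401). Its call rested on all 6 arrays: leaving out any 1 of them gave an adjusted p of 0.0579 to 0.14. Aurkb, the Aurora B kinase of the chromosomal passenger complex, and Pbk, a kinase active in mitosis, were not tested. Each was well above background on 0 amiodarone arrays and 1 vehicle array.

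Genes of the spindle checkpoint and of anaphase control were lower in all 6 tested cases. Ttk, which encodes the checkpoint kinase Mps1, had 2.65, 1.72 and 2.06 in amiodarone hearts, against 31.1, 42.9 and 32.9 in vehicle hearts. For Ttk the bound was a fall of at least 4.37-fold (adjusted p = 0.000162). Bub1b, which encodes the checkpoint protein BubR1, had 5.22, 3.92 and 5.06 in amiodarone hearts, against 35.6, 32.1 and 33.2 in vehicle hearts. Neither gene was measurable in any amiodarone pool, and Bub1b fell by at least 4.16-fold, with an adjusted p of 0.000226.

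Espl1 encodes separase, the protease that cuts cohesin at anaphase, and was at least 5.35-fold lower. Ube2c, the ubiquitin-conjugating enzyme of the anaphase-promoting complex, differed by -2.95 with 1 amiodarone array well above background. Cdc20, the activator of that complex, differed by -1.68, and its signals were 41.4 to 58.6 in amiodarone hearts and 148 to 180 in vehicle hearts. Bub1, a checkpoint kinase, had the smallest fall among the genes that passed, at -0.70 (adjusted p = 0.0472), and an adjusted p of 0.0534 to 0.147 when any 1 of the 6 arrays was left out. Mad2l1, which encodes the checkpoint protein Mad2, was measured on 2 arrays of each group and not tested, with 6.98 to 15.0 in amiodarone hearts and 10.6 to 12.9 in vehicle hearts.

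All 4 kinetochore and chromosome genes were lower. Birc5, which encodes survivin of the chromosomal passenger complex, had 10.9, 13.6 and 7.73 in amiodarone hearts, against 61.6, 75.4 and 51.4 in vehicle hearts. The log2 difference was -2.57 (SE 0.24, n = 3 each, adjusted p = 0.00128), with 1 amiodarone array well above background. Top2a, the topoisomerase that untangles sister chromatids, had 2.64, 7.70 and 8.10 in amiodarone hearts, against 53.8, 63.2 and 63.6 in vehicle hearts. Top2a had the highest bound among these genes, at least 6.86-fold lower (adjusted p = 0.00347).

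Nuf2 and Ndc80, partners in the complex that holds microtubules at the kinetochore, were lower together. Nuf2 was at least 4.02-fold lower. Ndc80 differed by -2.41, with 1 amiodarone array well above background. The Ndc80 call was lost without vehicle replicate 1 (adjusted p = 0.0512) and without vehicle replicate 2 (0.0600).

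Kinesins and other spindle proteins were the least measurable role, with 2 of 6 tested. Kif22, a chromosome-bound kinesin that pushes chromosome arms outwards, had 10.4, 13.9 and 3.02 in amiodarone hearts, against 76.9, 58.1 and 61.7 in vehicle hearts. The Kif22 groups did not overlap, and the fitted difference was -3.10 (SE 0.51, n = 3 each, adjusted p = 0.0127), with 1 amiodarone array well above background. The call too was lost without vehicle replicate 1 (0.0529) or 2 (0.0534). Kif15, a kinesin that helps to keep the spindle bipolar, had 19.2, 9.84 and 7.45 in amiodarone hearts, against 14.0, 24.8 and 14.8 in vehicle hearts. These groups overlapped and Kif15 did not pass (difference -0.62, SE 0.37, adjusted p = 0.339).

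The 4 others of this role were not tested in heart. Tpx2, which activates Aurora A on spindle microtubules, had 2.31 to 3.02 in amiodarone hearts and 10.4 to 21.0 in vehicle hearts, where 2 of 3 arrays were well above background. Kif2c, a kinesin that takes microtubules apart at their ends, had 1.48 to 3.14 in amiodarone hearts and 9.96 to 11.6 in vehicle hearts, again with 2 vehicle arrays. Nusap1, which bundles microtubules, was on 1 vehicle array. Kif11, the kinesin Eg5 that pushes spindle poles apart, was on no heart array.

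Central spindle and cytokinesis genes were lower in all 4 tested cases. Kif20a, a kinesin of the central spindle, had 9.62, 7.16 and 12.9 in amiodarone hearts, against 119, 113 and 114 in vehicle hearts. The difference was -3.59 (SE 0.22, n = 3 each, adjusted p = 0.000267), with 1 amiodarone array well above background. Ect2, the exchange factor that switches on RhoA at the cleavage plane, had 9.76, 11.9 and 6.74 in amiodarone hearts, against 104, 87.0 and 88.2 in vehicle hearts. The Ect2 groups lay far apart, at a fitted -3.33 (SE 0.22, n = 3 each, adjusted p = 0.000399), again with 1 amiodarone array well above background.

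Racgap1 and Kif23 form centralspindlin, the complex that recruits Ect2. Racgap1 differed by -1.41, and a second probe by -1.16. Kif23 differed by -1.84, with 2 amiodarone arrays well above background. Prc1, which cross-links central spindle microtubules, and Cep55, which recruits the abscission machinery, were on no heart array.

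Probes of 1 gene did not always report alike. Ccna2, Ccnb1, Ect2, Ttk and Bub1b each had a further probe on no heart array, and these carry no information on the change. Bub1b had yet another probe, which was well above background on 0 amiodarone and 3 vehicle arrays.

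All 24 genes were lower on both array slides, each of which had its own scan session. With slide as a block 23 were lower, and on the first slide alone 20 of the 25 were. The sizes depend on the background method. Normexp correction adds an offset of 50 to every signal, which shrinks differences between dim signals. With it the median of the 8 genes measured on all 6 arrays was -0.63 instead of -1.55. Of the 25 tested, 22 were still lower.

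Markers of other cell types moved in the same hearts. Of the red cell and erythroid precursor markers, 8 of 16 tested were lower and 0 higher, with a summed signal of 7060 to 8740 in amiodarone hearts and 14400 to 17900 in vehicle hearts. Of the 8, Add2, Epb42 and Klf1 passed the filter only through the vehicle pools, so their lower level is in part built in. Hbb, a haemoglobin chain, differed by -2.39 and Alas2, the first enzyme of haem synthesis in red cells, by -3.14, while Gata1, Rhag and Ermap were on no heart array. Fibroblast markers were lower in 6 of 10 tested and higher in 0, with 15900 to 21300 in amiodarone hearts and 32000 to 41900 in vehicle hearts. Col1a1, a chain of collagen I, differed by -2.12, while Pdgfra, Dcn, Fbln1 and Tcf21 did not pass, with differences of -0.33 to 0.47. The part of these cells in the fall of the mitosis genes was not tested.

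Macrophage markers were higher in 3 of 9 tested, with summed signals of 7280 to 9290 in amiodarone hearts and 4010 to 5730 in vehicle hearts. Of the cardiomyocyte markers 1 of 14 was higher (Myh7, 0.80), with 1190000 to 1370000 in amiodarone hearts and 965000 to 1320000 in vehicle hearts. Neutrophil markers were higher in 2 of 4 tested, platelet markers lower in 1 and higher in 1 of 3, endothelial markers lower in 1 of 10 and smooth muscle markers in 1 of 5. T cell (4 tested) and natural killer cell markers (6 tested) had none past the threshold. The only B cell marker tested was lower, and Ms4a1, Blk and Cr2 were on no heart array.

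In whole blood 26.9% of 15919 tested features were lower with amiodarone and 41.0% higher. With normexp correction these counts were far smaller, 1049 lower and 244 higher. Its offset of 50 is above the raw 75th percentile of the vehicle blood arrays (20.2 to 25.3), so it shrinks many blood differences by construction. Among the mitosis genes 19 were tested, of which 11 were lower, 2 (Kif15 and Kif22, dim in vehicle blood) passed with a positive difference and 6 did not pass. The pools did not overlap in 12 with lower and 2 with higher values, against 28.5% and 45.4% of features. The 11 were Cdk1, Cdkn3, Plk1, Mad2l1, Cdc20, Ube2c, Espl1, Ndc80, Birc5, Kif23 and Racgap1, and each was well above background on all 6 blood arrays. Of the 13 genes measured on all 6, the other two, Aurka and Ccnb1, did not pass (-0.35 and -0.31). Among the 10787 features measured on all 6 blood arrays 36% were lower and 40.9% higher. The median was -1.54 for the 13 genes, against 0.19 for these features.

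**Figure D2:**
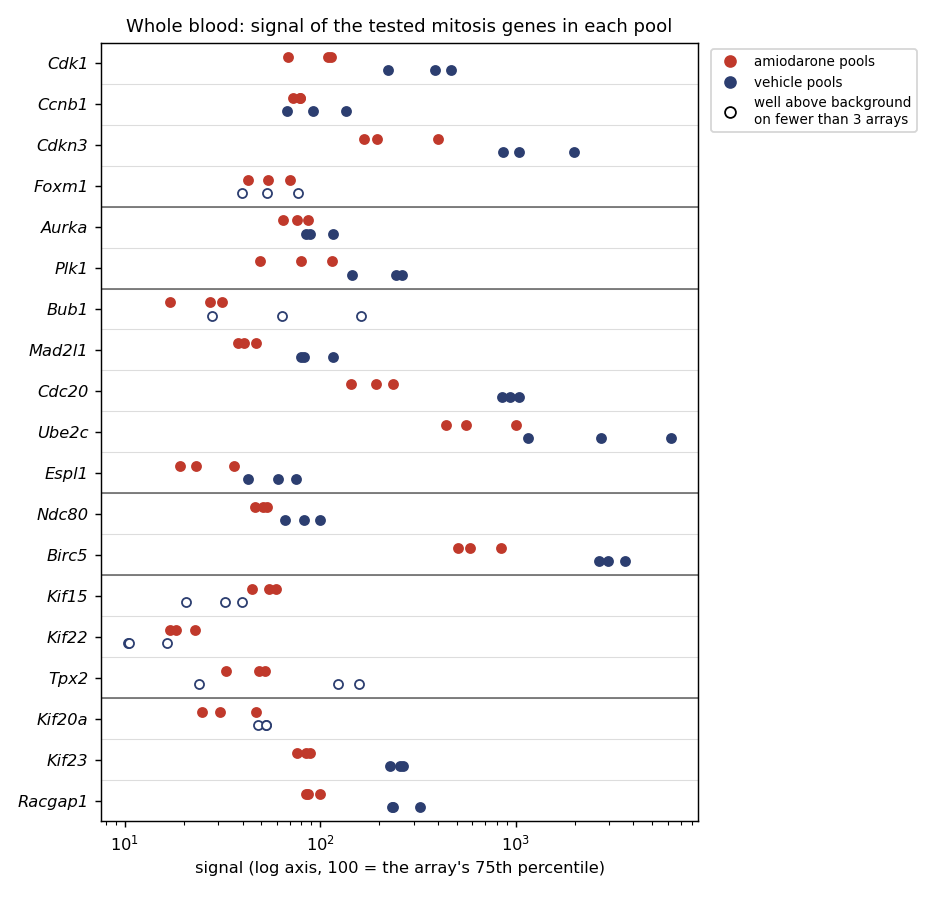
Signal of each tested mitosis gene in the 3 amiodarone and the 3 vehicle whole blood pools, on a log axis where 100 is the array's 75th percentile. Open points mark groups with fewer than 3 arrays well above background. The vehicle points of Kif15 and Kif22 are open and cannot be ordered, while the points of Birc5, Ube2c, Cdc20 and Cdkn3 lie far to the right.

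The direction in blood depends on how the arrays are scaled, and vehicle blood arrays were much dimmer. Without scaling, all features shifted by 2.04 (median), and with scaling to the spike-in probes by 1.71. Under those scalings 6 and 8 of the 13 genes were below 0, instead of all 13, and 1 and 3 of the tested genes were called lower. All 13 genes were below the median of all features, by a median of -1.99. Scaling to the 75th percentile, the median or the spike-ins, or not scaling, moves every gene of an array alike, so that gap is the same under all of them by construction. It was -2.06 with quantile normalization and in the deposited value table. With normexp correction it was -0.62, with all 13 still below and 4 genes called lower. With no filter on dim probes it was -0.47, and 3 of the 13 lay above the median of all features. Against only the features measured on all 6 blood arrays, whose median was 0.19, the gap was -1.73. Every "lower" and "higher" that follows for blood is on the 75th percentile scale.

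**Figure D3:**
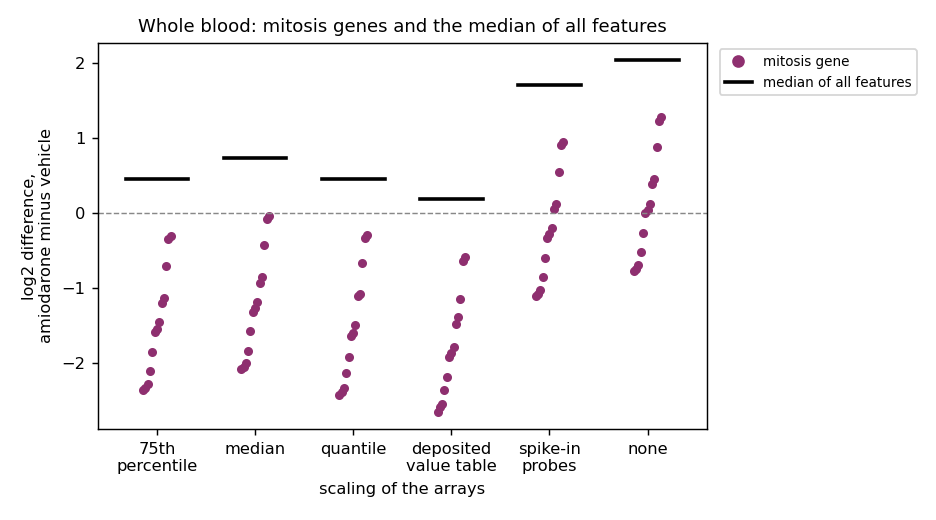
Log2 difference, amiodarone minus vehicle, in whole blood under 6 scalings for the 13 mitosis genes well above background on all 6 blood arrays (points, sorted from low to high). The bars mark the median of all features, which moves between 0.19 and 2.04, and every point lies below its bar.

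The 3 genes with the smallest p among the falls in blood come from anaphase control, cytokinesis and the passenger complex. Cdc20 had signals of 144, 237 and 192 in amiodarone blood, against 851, 1040 and 939 in vehicle blood. The groups were clearly apart, with a log2 difference of -2.33 (SE 0.23, n = 3 each, adjusted p = 0.000946). Kif23, the motor of centralspindlin, had 76.0, 84.8 and 88.1 in amiodarone blood, against 255, 265 and 228 in vehicle blood. The spread within each group was small beside that gap, and the difference was -1.59 (SE 0.17, n = 3 each, adjusted p = 0.000966). Birc5 had 509, 846 and 584 in amiodarone blood, against 2960, 3630 and 2670 in vehicle blood. Its difference was -2.28 (SE 0.24, n = 3 each, adjusted p = 0.00097).

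Ube2c and Cdkn3 had wide spreads. Ube2c had 438, 555 and 1000 in amiodarone blood, against 1150, 2720 and 6240 in vehicle blood. The groups of Ube2c did not overlap, yet its call (-2.11, adjusted p = 0.0175) was lost without amiodarone replicate 1 (0.0612) or 2 (0.0514). Cdkn3 had 168, 196 and 402 in amiodarone blood, against 864, 1040 and 1990 in vehicle blood, a difference of -2.36 (adjusted p = 0.00304). In both genes replicate 3 of each group was the highest pool.

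The rest of the 11 fell by less. Cdk1 differed by -1.85, Racgap1 by -1.54 and Plk1 by -1.46. Espl1 differed by -1.20, Mad2l1 by -1.13 and Ndc80 by -0.70, and the Ndc80 call was lost without amiodarone replicate 3 (adjusted p = 0.0655).

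Kif15 and Kif22 had an adjusted p below the threshold with a positive fitted difference. Both entered the test only through the amiodarone pools. They were well above background on all 3 amiodarone and 0 vehicle arrays, as were 18.0% of the features on all amiodarone arrays, while 0.216% of those on all vehicle arrays showed the reverse and none of these genes did. Kif15 had 44.7, 54.9 and 59.5 in amiodarone blood, against 32.6, 20.6 and 39.9 in vehicle blood, where it was well above background on 0 arrays. Kif15 was thus at least 1.33-fold higher (adjusted p = 0.032). Kif22 had 18.3, 22.8 and 17.1 in amiodarone blood, against 10.4, 10.5 and 16.5 in vehicle blood. The values of both groups lie below what the vehicle arrays could measure, so neither a direction nor a fold can be given for Kif22 (adjusted p = 0.0428).

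Those 2 calls were fragile. Kif15 lost its call without vehicle replicate 1 (adjusted p = 0.0514) or 2 (0.0762) and without amiodarone replicate 2 (0.0808) or 3 (0.0988). Kif22 lost it without vehicle replicate 1 (0.117) or 2 (0.119) and without amiodarone replicate 1 (0.0843), 2 (0.126) or 3 (0.0669). Both calls were also lost with normexp correction and in the deposited value table.

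The 6 genes that did not pass in blood were Ccnb1, Foxm1, Aurka, Bub1, Tpx2 and Kif20a. Foxm1 had 54.2, 70.0 and 42.6 in amiodarone blood, against 39.9, 53.3 and 76.5 in vehicle blood, so its groups overlapped fully. Bub1 had 17.0, 27.3 and 31.6 in amiodarone blood, against 27.9, 63.6 and 162 in vehicle blood (-1.43, adjusted p = 0.0656). It passed with slide as a block (0.0262) and with the replicate number as a block (0.0128). Leaving out vehicle replicate 1 took Bub1 to -2.05 (0.0105) and Tpx2, at -0.82 with all arrays, to -1.66 (0.00474). Kif20a did not overlap but missed the threshold (-0.64, adjusted p = 0.056), and passed without amiodarone replicate 2 (0.0121).

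Of the 16 genes not tested in blood, 14 were on no blood array: Aurkb, Ccna2, Cep55, Cks2, Ect2, Kif11, Kif2c, Melk, Nuf2, Nusap1, Pbk, Prc1, Top2a and Ttk. Ccnb2 was well above background on 1 array of each group and Bub1b on 1 amiodarone array.

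All 11 genes lower in blood were lower on both slides. With slide as a block 12 were lower, and on the first slide alone 9 were.

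Red cell markers moved with the blood mitosis genes. Of 22 red cell and erythroid precursor markers tested, 21 were lower and 0 higher, with a median of -2.13. Their summed signal was 325000 to 602000 in amiodarone blood and 1330000 to 2200000 in vehicle blood, and every marker with a probe was on at least 1 array. Tfrc, the transferrin receptor of young red cells, differed by -2.22 and Gata1, the erythroid transcription factor, by -2.05. Without scaling 4 of the 22 were lower and 1 higher, and with spike-in scaling 10 and 1.

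Markers of nucleated blood cells and platelets are read against the 41.0% of all blood features that were higher. T cell markers were higher in 7 of 10 tested and natural killer cell markers in 7 of 9, with none lower on either list. Neutrophil markers were higher in 6 of 11 and lower in 3, and platelet markers were higher in 5 of 7. Of the B cell markers 1 of 7 was higher, and of the monocyte and macrophage markers 5 of 11 were higher and 2 lower. Fibroblast markers were lower in 2 of 3 tested, endothelial markers lower in 1 and higher in 3 of 5, and cardiomyocyte markers lower in 3 and higher in 2 of 5. No smooth muscle marker could be tested in blood. With normexp correction 0 T cell, B cell, natural killer cell and platelet markers were higher. The part of these cells in the blood values of the mitosis genes was not tested.

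The same probe was set between tissues in 1 limma fit of all 12 arrays, as the drug effect in blood minus the drug effect in heart. Of 27 genes in that fit 15 had a higher value and 0 a lower one, against 21.8% and 24.6% of 20416 features. A higher value means a fitted change that was less negative, or more positive, in blood than in heart. Of the 15, 7 did not pass the filter in blood, so the comparison is read here only for the 17 genes tested in both tissues. Tissue, RNA kit and slide cannot be told apart in it. Of these 17, 8 passed, all with a positive value, blood minus heart. Except for Ccnb1, each had passed the filter through the vehicle pools alone in heart, the amiodarone pools alone in blood, or both. Such a filter favours a positive value, so the shared sign is in part built in.

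**Figure D4:**
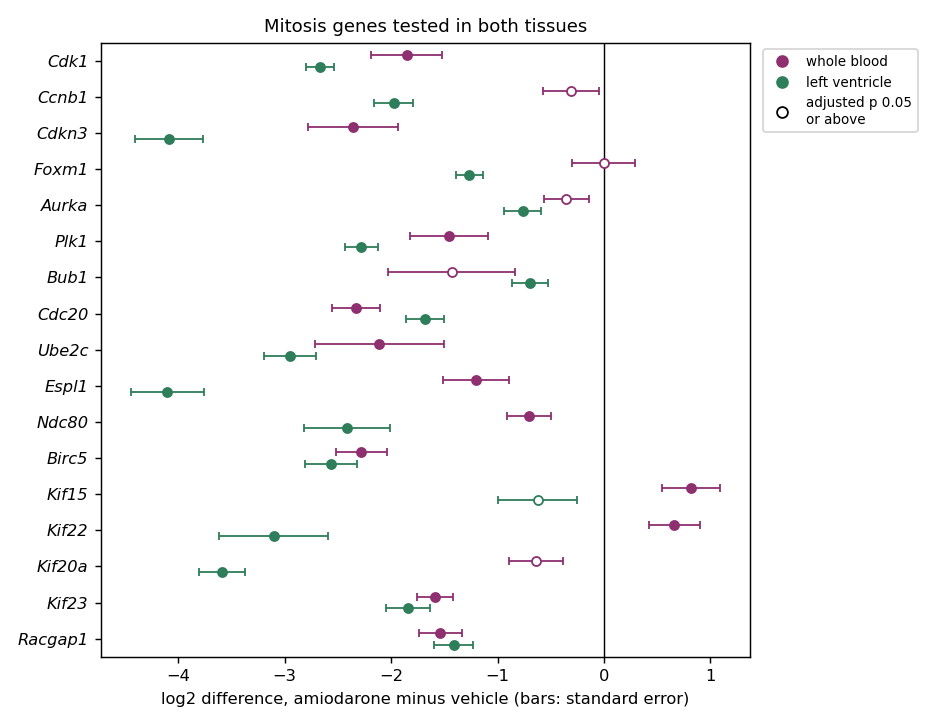
Log2 difference, amiodarone minus vehicle, with its standard error for the 17 mitosis genes tested in both tissues, whole blood above left ventricle for each gene. Open points have an adjusted p of 0.05 or above. Kif15 and Kif22 in vehicle blood and Espl1 in amiodarone heart were well above background on 0 arrays, so their gaps have no exact size. Kif22 has no direction in blood. Birc5 and Kif23 differ by 0.29 and 0.25 between the tissues.

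The fitted differences were 3.76 for Kif22 (adjusted p = 0.00129), 2.95 for Kif20a (0.000275) and 2.90 for Espl1 (0.00159). They were 1.72 for Cdkn3 (0.0333), 1.71 for Ndc80 (0.017), 1.67 for Ccnb1 (0.00318), 1.44 for Kif15 (0.0388) and 1.26 for Foxm1 (0.0121). All but that of Ccnb1 rest in part on arrays where the gene was not well above background, so these sizes have no order. No direction could be given for Kif22 in blood, so its value does not show that the drug effects differ. The Cdkn3 call was lost with quantile normalization (0.0748) and in 8 of 12 fits that left out 1 array. The Kif15 call was lost in 7 of those 12 and with the replicate number as a block (0.0588). Of the 6 genes well above background on every array of both tissues, only Ccnb1 passed. Of the 8980 features measured on every array, 3027 were higher and 2277 lower. Ccnb1 differed by -0.31 in blood and by -1.98 in heart. Cdc20 pointed the other way without passing (-0.65, adjusted p = 0.094), with -2.33 in blood and -1.68 in heart. Birc5 (0.29, SE 0.37) and Kif23 (0.25, SE 0.27) did not pass, and their errors still allow a difference.

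In vehicle blood against vehicle heart 12 of 27 genes were higher and 8 lower, against 38.4% and 42.7% of 20416 features, so most features differ between these tissues. Birc5 had 2670 to 3630 in vehicle blood and 51.4 to 75.4 in vehicle heart, a log2 difference of 5.63. Ube2c had 1150 to 6240 in vehicle blood and 54.0 to 76.6 in vehicle heart, a difference of 5.32. Both remained higher in blood without any scaling (3.11 and 2.81) and with spike-in scaling (3.36 and 3.06).

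Other genes of this comparison depended on the scale. Racgap1 (2.79), Cdkn3 (2.59), Kif23 (2.55) and Cdc20 (2.53) were higher in blood, and without scaling they lay at 0.28, 0.08, 0.03 and 0.01 and did not pass. Without scaling 2 of the 27 were higher and 19 lower. Ect2, Kif22 and Top2a were on 0 vehicle blood arrays and all 3 vehicle heart arrays, at least 2.34-fold, 1.65-fold and 1.52-fold higher in heart. With normexp correction, whose offset shrinks differences between dim signals, those of Kif22 and Top2a, blood minus heart, were -0.01 and 0.01.

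Other genes of the cell cycle were counted from lists, to place the mitosis genes among them. Of 24 tested other mitosis genes, 12 were lower in amiodarone hearts and 0 higher. Of the 12, 7 passed the filter only through the vehicle pools, so their lower level is in part built in. Pimreg, a regulator of the metaphase-to-anaphase transition, was at least 9.71-fold lower and Cenpt, a kinetochore protein, at least 4.43-fold. Aspm, a spindle pole protein on 2 amiodarone arrays, differed by -3.20 and Pttg1, which encodes securin, by -2.19.

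S phase entry and DNA replication genes were lower in 5 of 21 tested and higher in 0 in heart, with a median of -0.35. E2f1, an activator of S phase genes, differed by -2.10, Ccne1, which encodes cyclin E1, by -1.50 and Chaf1b, a histone chaperone subunit, by -1.06. Mcm6, also lower, passed the filter only through the vehicle pools. The other 16 did not pass.

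Cell cycle inhibitors and factors of the DREAM and RB complexes were lower in 2 of 20 and higher in 5 in heart. Over all heart features the shares were 4.01% and 4.35%. Mybl2, which turns on G2 and M genes together with the MuvB core, was at least 2.47-fold lower. Cdkn1c, which encodes the Cdk inhibitor p57, was higher (1.54), as were Rbl2, the pocket protein of the DREAM repressor (1.16), and Wee1, the kinase that holds Cdk1 inactive (1.09). Without scaling 1 was lower and 1 higher, and the median of all heart features was -0.11. Subunits of cohesin and of the anaphase-promoting complex that cells carry at all times were lower in 0 of 16 and higher in 1, Stag2 (0.53), with a median of 0.02.

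**Figure D5:**
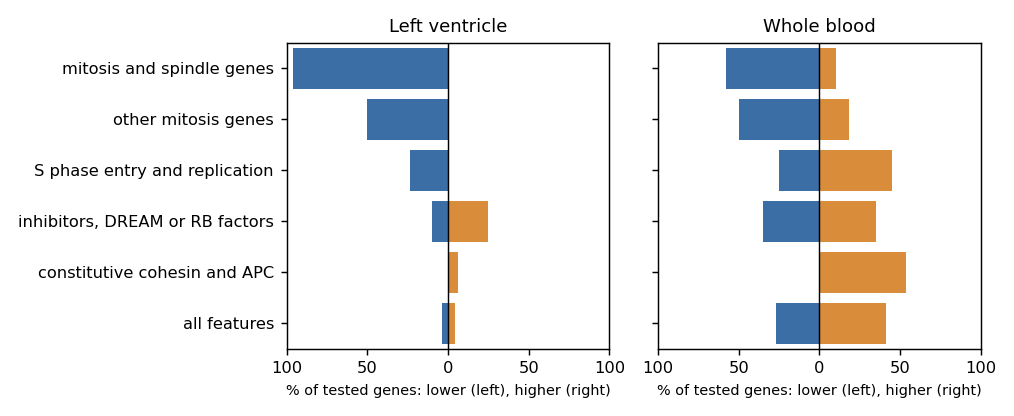
Share of tested genes past the threshold in left ventricle and whole blood for the mitosis and spindle genes, 4 other cell cycle lists and all features, lower with amiodarone to the left and higher to the right. In heart the bars of the mitosis lists point left, and that of the constitutive subunits is close to that of all features.

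In blood, other mitosis genes were lower in 11 of 22 tested and higher in 4, with a median of -1.32. Ube2s, a partner of Ube2c on the anaphase-promoting complex, differed by -2.37, Dlgap5, a spindle protein, by -1.75, Spag5, another, by -2.74 and Cenpt by -2.91. Without scaling 4 were lower and 10 higher. S phase genes were lower in 5 of 20 and higher in 9, near the 26.9% and 41.0% of all features. Without scaling 1 was lower and 15 higher, and in the values the authors deposited 7 were lower and 3 higher. Ccne2, which encodes cyclin E2, differed by -2.47 and Tk1, a thymidine kinase, by -2.35, while Fen1, the flap endonuclease of replication, was higher (0.94).

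Inhibitors and DREAM or RB factors in blood were lower in 7 of 20 and higher in 7, against 26.9% and 41.0% of all features. Cdkn1a, which encodes the Cdk inhibitor p21, was on 3 amiodarone and 0 vehicle arrays and at least 4.61-fold higher. Mybl2 differed by -1.77, Fzr1, the Cdh1 activator of the anaphase-promoting complex, by -2.10 and Cdkn2c, a Cdk4 and Cdk6 inhibitor, by -1.67. Constitutive subunits were lower in 0 of 15 and higher in 8, with a median of 0.71 beside 0.46 for all features. Smc3, a cohesin subunit, Anapc7 and Cdc27 were on 0 vehicle arrays, so their calls are in part built in. Smc3 had a fitted 1.45, but its mean in both groups lay below what the vehicle arrays could measure. Neither a direction nor a fold can be given for Smc3. In the values the authors deposited, 1 of the constitutive subunits was lower and 3 were higher. Without scaling, 0 of the inhibitors and DREAM or RB factors were lower and 15 higher, and all 15 constitutive subunits were higher.

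The promoter motifs can be set beside the heart values as a description. Aurka and Bub1, with the smallest falls among the genes that passed, held neither TTTGAA nor CCAAT in their 300 bases. Melk and Kif2c held neither as well, and Melk was at least 4.77-fold lower. Kif15, the tested heart gene that did not pass, held 2 TTTGAA matches and no CCAAT.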

How the data were processed

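Each of the 12 pools was hybridised to 1 single-colour Agilent array. Per the file headers, spot intensities were extracted with Agilent Feature Extraction 9.5.1.1, background-subtracted and detrended within each array. The flags, such as well above background, are other values written per spot, per the file headers. The deposited value table holds intensity values that the authors normalized for heart and blood separately, and it served as an alternative. Its scale and centring are not given in the sources used here.

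Outlier-flagged and control spots were left out, spots of a probe averaged, and log2 intensity set to the 75th percentile of each array. Of the 41012 probes, 16336 were named by RefSeq accession, 3742 by symbol, 1108 by synonym and 19826 kept the name in the file. A gene was read by its brightest passing probe. Each tissue was fitted with limma 3.58.1 (R 4.3.3, with the data.table package, version 1.17.8) over all features, two-sided, with Benjamini-Hochberg adjustment, and a 12-array fit compared tissues. An exact permutation of 3 against 3 cannot go below a p of 0.1. The fits were tested on simulated data.

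The genes, lists and tests were chosen with earlier results of these data known. Per-pool values are given for the 2 tested genes with the smallest heart p in each role and the 3 with the smallest blood p in each direction, and for others singled out after their values were seen. Up to 4 genes of each other list are named, and some that the rule would name are not reported here. Alternatives were background correction, scaling, filter, probe choice, slide, replicate block and leaving out each array. Array number limits the precision.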

Additional observations from a re-analysis of the deposited data

Results flagged for a closer look

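Fitted drug effects of 8 mitosis genes passed the threshold between tissues in the 12-array limma fit, as blood minus heart on the log2 scale. The differences were 3.76 for Kif22, 2.95 for Kif20a, 2.90 for Espl1, 1.72 for Cdkn3, 1.71 for Ndc80, 1.67 for Ccnb1, 1.44 for Kif15 and 1.26 for Foxm1. The sizes have no order, since all but that of Ccnb1 rest in part on arrays where the gene was not well above background. For all but Ccnb1 the positive sign is also in part built in by the filter. No direction could be given for Kif22 in blood. Cdkn3 also lost its call with quantile normalization (adjusted p = 0.0748) and in 8 of 12 fits that left out 1 array, and Kif15 in 7 of them. With normexp correction Cdkn3, Foxm1, Kif15 and Ndc80 no longer passed, at 0.48, 0.61, 0.16 and 0.34.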

How the results depend on the processing

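No heart difference changed sign under the alternatives run, and 20 to 22 genes were lower when 1 array was left out. It was 8 when only features well above background on every array were tested, since 17 of the 25 genes then drop out. In blood, 10 to 13 genes were lower and 0 to 2 higher with 1 array left out. The count lower in blood was 4 with normexp correction, 1 without scaling, 3 with spike-in scaling and 24 with no filter on dim probes. The count higher in blood was 0 with normexp, in the deposited value table and on features well above background on every array, 7 without scaling and 5 with spike-in scaling.

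For the drug effect in blood minus that in heart, the count higher was 9 with normexp, 24 without scaling, 23 with spike-in scaling and 1 on features measured on every array. The count lower was 3 with quantile normalization, 1 with no filter and 0 to 1 with 1 array left out. For vehicle blood minus vehicle heart, the count lower was 3 with normexp, 19 without scaling, 18 with spike-in scaling and 0 on features measured on every array. The count higher was 2 without scaling, 2 with spike-in scaling and 5 on features measured on every array.

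Blood differences changed sign without scaling and with spike-in scaling for Ndc80 (0.88 and 0.55), Foxm1 (1.58 and 1.25), Espl1 (0.38 and 0.054), Kif20a (0.95 and 0.62), Mad2l1 (0.45 and 0.12), Ccnb1 (1.28 and 0.95), Aurka (1.23 and 0.90) and Tpx2 (0.77 and 0.44). Without scaling they also did for Plk1 (0.13), Bub1 (0.15) and Racgap1 (0.045). Foxm1, at -0.003 with all arrays, was 0.051 with normexp, 0.067 with quantile normalization, 0.27 with array median scaling, 0.42 on the first slide and -0.23 to 0.24 with 1 array left out. The median of all blood features was 2.04 without scaling and 1.71 with spike-in scaling.

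Correlations of same-numbered arrays' deviations were -0.17, -0.24 and 0.32 in heart and 0.083, 0.17 and 0.31 in blood. Since not every pair passed 0.1 in either tissue, the numbers are not taken to pair the samples. Within each tissue, both arrays numbered 3 share a slide. With the replicate number as a block, 22 genes were lower in heart, 12 lower and 1 higher in blood, and 15 higher and 1 lower between tissues.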
